A study of Mus musculus with 10 samples.

Results

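The peaks described here are intergenic H3K18La and H3K27Ac regions of mouse retina that lie near a gene. They were the rows annotated as distal intergenic whose distance to the assigned transcription start site was at most 20 kb, and 17423 of 108253 peaks (16.1%) met this rule. The tissue was retinal explants of wild-type C57BL/6J mice at postnatal day 28, freed of sclera and pigment epithelium and kept for 48 hours in Neurobasal-A medium. Groups differed in glucose, 5 mM or 25 mM, and in the histone mark profiled by CUT&Tag, an assay that releases and sequences the DNA around an antibody-bound histone mark. H3K18La had 3 libraries per glucose level and H3K27Ac had 2, which makes 10 libraries in 1 labelled batch. Each assay started from 500000 dissociated cells per the labels, and the labels do not say which libraries came from separate animals, so p-values measure the spread between these libraries. In such bulk tissue a change in the number of cells of a type and a change of signal per cell cannot be told apart.

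H3K18La is the lactylation of lysine 18 of histone H3, a modification whose acyl group derives from lactate, the product of glycolysis. H3K27Ac is the acetylation of lysine 27 and is found at active promoters and enhancers. Intergenic regions that carry H3K27Ac are commonly read as enhancers, which bind transcription factors and act on genes at a distance. In photoreceptors the homeodomain factors CRX and OTX2, the leucine zipper factor NRL and several nuclear receptors bind many such regions. The retina is known for strong aerobic glycolysis, most of it in photoreceptors.

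The labelled tissue was checked at the promoters of photoreceptor genes. The strongest promoter peaks of Nrl, Crx, Sag and Pde6b had mean H3K27Ac values of 26.8 to 35.2 RPKM (reads scaled to peak length and library size), against a median of 6.01 RPKM over the promoters of 14562 genes. The denominators of the RPKM values ranged from 1358008 to 7424470 reads, and whether they equal the sequenced depth is not given in the sources used here. Between 11.8% and 12.01% of the H3K18La denominator fell in peaks at 5 mM and between 31.2% and 35.0% at 25 mM. For H3K27Ac these shares were 21.1% and 31.5% at 5 mM, and 56.5% and 69.5% at 25 mM.

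Central windows of 300 bases are shown for 5 near intergenic peaks, read 5′ to 3′ on the plus strand of GRCm38. They were chosen to show sequence beside the results for a photoreceptor regulator (Nrl), an outer segment gene (Prph2), glycolysis (Ldha and Slc2a1) and bipolar cells (Trpm1). Capitals mark matches on either strand to 3 motifs. These are GGATTA (or TAATCC), the core bound by CRX and OTX2, TGCTGA (or TCAGCA), part of the site of NRL and other MAF factors, and AGGTCA (or TGACCT), a site element of nuclear receptors.
Nrl: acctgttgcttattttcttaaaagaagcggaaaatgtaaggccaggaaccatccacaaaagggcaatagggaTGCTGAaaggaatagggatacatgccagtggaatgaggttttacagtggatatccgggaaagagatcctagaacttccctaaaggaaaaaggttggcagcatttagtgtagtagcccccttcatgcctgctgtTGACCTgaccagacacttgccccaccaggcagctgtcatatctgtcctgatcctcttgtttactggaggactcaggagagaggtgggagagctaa
Prph2: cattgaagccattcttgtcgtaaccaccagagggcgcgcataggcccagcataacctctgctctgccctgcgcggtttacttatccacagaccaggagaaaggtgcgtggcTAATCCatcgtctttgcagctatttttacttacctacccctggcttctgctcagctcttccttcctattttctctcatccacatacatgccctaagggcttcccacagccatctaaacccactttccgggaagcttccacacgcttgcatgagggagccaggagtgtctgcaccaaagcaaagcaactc
Ldha: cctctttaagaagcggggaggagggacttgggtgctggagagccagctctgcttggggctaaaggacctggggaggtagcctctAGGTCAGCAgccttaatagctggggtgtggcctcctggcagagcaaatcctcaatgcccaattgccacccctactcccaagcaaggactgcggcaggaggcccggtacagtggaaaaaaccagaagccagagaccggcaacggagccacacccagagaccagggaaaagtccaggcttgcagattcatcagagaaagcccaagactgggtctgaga
Slc2a1: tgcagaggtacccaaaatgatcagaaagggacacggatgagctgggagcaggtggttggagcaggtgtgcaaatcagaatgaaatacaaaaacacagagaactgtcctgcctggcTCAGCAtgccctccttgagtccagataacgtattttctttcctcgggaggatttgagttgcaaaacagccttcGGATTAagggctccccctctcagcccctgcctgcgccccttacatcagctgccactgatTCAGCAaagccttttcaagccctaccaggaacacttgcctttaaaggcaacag
Trpm1: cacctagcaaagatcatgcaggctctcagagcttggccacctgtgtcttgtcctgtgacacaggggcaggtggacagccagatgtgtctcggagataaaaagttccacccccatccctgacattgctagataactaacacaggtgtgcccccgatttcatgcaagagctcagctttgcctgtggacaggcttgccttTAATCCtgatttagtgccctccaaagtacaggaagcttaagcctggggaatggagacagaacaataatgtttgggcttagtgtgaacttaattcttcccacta
The windows lie at chr14:55526585-55526884 (Nrl), chr17:46904034-46904333 (Prph2), chr7:46839023-46839322 (Ldha), chr4:119105554-119105853 (Slc2a1) and chr7:64139996-64140295 (Trpm1). All 5 windows were upstream of the start of the gene they are named for. The Slc2a1 window held TGCTGA 2 times and GGATTA once. The 2 matches of the Ldha window, to AGGTCA and to TGCTGA, overlap. A match describes letters and does not show that a factor was bound.

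The near intergenic peaks were short, with a median width of 704 bp (214 to 5301 bp) and a summed length of 14.4 Mb. Their distances to the assigned start ran from 514 to 20000 bp with a median of 8558 bp, and 61.1% of them were upstream. They were assigned to 9718 genes, 5747 of which had 1 such peak and 478 of which had 5 or more. The assigned start belonged to a protein-coding transcript for 4790 peaks, to a processed pseudogene for 3831 and to a lincRNA for 3814. A protein-coding start of GENCODE M21 lay within 20 kb of 8506 of them (48.8%). Of all near intergenic peaks, 837 lay within 1 kb of a start in the RefSeq annotation, so "intergenic" depends on the annotation for 4.80% of the peaks. Their median GC content was 49.1%, against 57.5% at promoters, and their median observed-to-expected CpG ratio was 0.180 against 0.596.

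The first comparison asked how much of each library fell in these peaks at the 2 glucose levels. For H3K18La the share of the denominator was 1.76% (95% Wilson interval 1.74 to 1.78), 1.79% (1.78 to 1.80) and 1.76% (1.74 to 1.78) at 5 mM. It was 5.11% (5.08 to 5.14), 4.81% (4.79 to 4.83) and 4.77% (4.75 to 4.79) at 25 mM. The groups did not overlap, and the mean rose 2.76-fold from 1.77% ± 0.019 to 4.90% ± 0.184 (SD, n = 3 each, exact permutation test, two-sided p = 0.1, the smallest that 3 against 3 allows). For H3K27Ac the shares were 2.28% (2.27 to 2.29) and 3.35% (3.33 to 3.36) at 5 mM, and 6.78% (6.76 to 6.80) and 5.82% (5.81 to 5.84) at 25 mM. The H3K27Ac groups did not overlap either, with a ratio of 2.24 and an exact two-sided permutation p of 0.333, the smallest for 2 against 2. These intervals cover counting error only.

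The same peaks as a share of reads in all peaks hardly moved for H3K18La. They took 14.6%, 15.1% and 14.9% of those reads at 5 mM and 14.6%, 15.2% and 15.3% at 25 mM, so the groups overlapped (exact permutation p = 0.6, n = 3 each). For H3K27Ac they took 10.8% and 10.6% at 5 mM and 9.76% and 10.3% at 25 mM, and here the 25 mM libraries were the lower ones (exact permutation p = 0.333, n = 2 each). The higher share of the denominator at 25 mM was therefore shared with the other classes of peaks. The ratio of 25 over 5 mM was 2.76 in near intergenic peaks, 2.80 in promoters and 2.49 in intergenic peaks 20 to 100 kb from a start for H3K18La. For H3K27Ac these ratios were 2.24, 2.85 and 1.85.

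**Figure D1:**
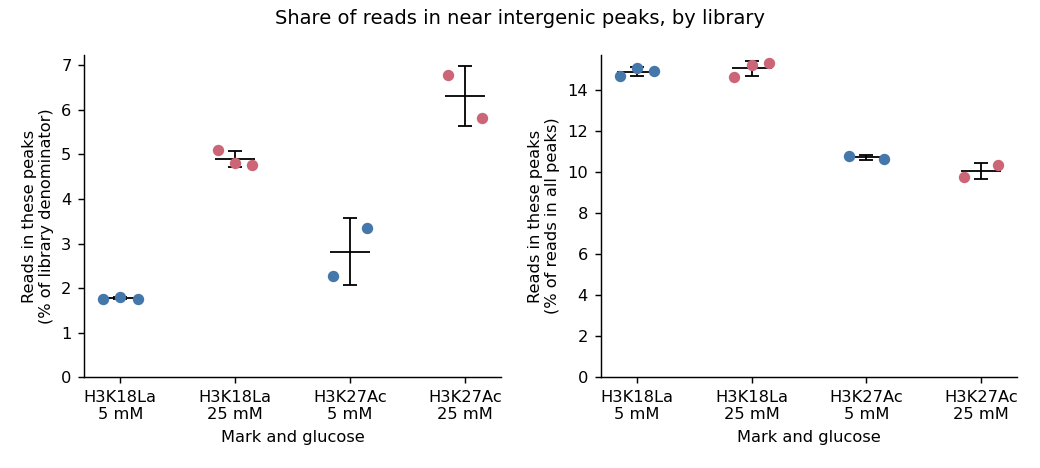
Reads in near intergenic peaks as a percentage of the library denominator (left) and of reads in all peaks (right), by mark and glucose. Points are libraries, and black bars give the mean and SD. On the left every 25 mM library lies above the 5 mM libraries of its mark, while on the right the H3K18La groups overlap near 15% (14.6 to 15.3).

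Peak by peak, H3K18La differed between 25 and 5 mM at 3646 of the 17423 near intergenic peaks (20.9%), against 20.8% of all peaks (limma, Benjamini-Hochberg adjusted p below 0.05 over all peaks). Of these, 3618 were higher at 25 mM (20.6% of all peaks were called higher) and 28 were lower (0.117% of all peaks). All 3 libraries at 25 mM lay above all 3 at 5 mM for 6144 peaks (36.6% of all peaks did so), and below them for 158 (0.821% of all peaks). The median log2 fold change was 0.73 for the near intergenic peaks and 0.76 for all peaks, on the log2(RPKM + 0.5) scale, which understates the change of weak peaks. Their calls thus ran at the rate of the whole set. The called falls were weak, with at most 16 reads over the 6 libraries. With the libraries scaled to their reads in peaks no peak of the whole set was called. An unadjusted p below 0.05 was found at 1789 near intergenic peaks and at 10471 of all peaks. The near intergenic median log2 fold change was then -0.067. With each library centred on the median of all peaks 944 were called (5.42%, against 5.02% of all peaks) and the median was 0.10. Without replicate 1, 2 or 3 of the 25 mM group 2375, 1975 and 2383 peaks were called. These were 13.6%, 11.3% and 13.7%, against 13.2%, 11.2% and 13.8% of all peaks.

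H3K27Ac differed at 2184 near intergenic peaks (12.5%), against 16.6% of all peaks. There were 2149 rises (16.4% of all peaks rose) and 35 falls (0.179% of all peaks fell). Both 25 mM libraries lay above both 5 mM libraries for 8153 peaks (53.0% of all peaks), and below them for 1259 (6.37% of all peaks). The median log2 fold change was 0.47, against 0.58 over all peaks and 1.13 at promoters. No peak of the whole set was called at a pseudocount of 0.1, with plain moderation of the variances or with reads thinned to equal depth. At a threshold of 0.01, 12 near intergenic peaks were called (0.0689%, against 0.0794% of all peaks). No call was made when any 1 of the 4 libraries was left out (907 to 4895 near intergenic peaks then had an unadjusted p below 0.05). Such a fit has 1 library in an arm, which is assumed to vary like the pair in the other arm, so it has little power, and the median log2 fold change was then 0.35 and 0.61 without replicate 1 or 2 at 5 mM, and 0.49 and 0.50 without replicate 1 or 2 at 25 mM. None was made either after scaling to reads in peaks, where 2423 near intergenic peaks and 15738 of all peaks had an unadjusted p below 0.05. The near intergenic median log2 fold change was then -0.34.

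Both marks rose past the threshold at 1364 near intergenic peaks (8.16% of all peaks did so), H3K18La alone passed it at 2251 (12.9%, against 12.5% of all peaks) and H3K27Ac alone at 785 (4.51%, against 8.28% of all peaks). Passing in 1 mark does not show a difference between the marks. The glucose change differed between marks at 0 peaks in the interaction test over the 10 libraries by limma (0.0% of all peaks). At an unadjusted p below 0.05 there were 849 near intergenic peaks (4.87%, against 4.61% of all peaks), and 0 were called by voom. The fold changes of the marks had a Pearson r of 0.44 and a Spearman rho of 0.44 across the 17423 peaks, which are not independent and share libraries within each mark. Of the peaks, 80.4% had a higher fitted H3K18La value at 25 mM, 74.8% a higher H3K27Ac value and 63.6% both.

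The share of called peaks was lower at greater distance from the assigned start. H3K27Ac was called at 16.0% of the 1299 peaks within 2 kb, at 15.5%, 12.6% and 10.97% of those at 2 to 5, 5 to 10 and 10 to 15 kb, and at 9.80% of the 3195 peaks at 15 to 20 kb. For H3K18La the shares were 22.1%, 22.6%, 22.2%, 19.6% and 18.2%. In the intergenic peaks at 20 to 100 kb they were 15.2% for H3K18La and 5.95% for H3K27Ac, and beyond 100 kb 9.12% and 2.96%. Just inside the 20 kb limit, at 19 to 20 kb, 15.9% and 8.51% of 611 peaks were called, and just outside it, at 20 to 21 kb, 20.5% and 8.76% of 605. By distance to the nearest protein-coding start, which runs over a wider range, the shares went from 22.9% of 1807 peaks within 5 kb to 4.60% of 3717 peaks beyond 100 kb for H3K27Ac, and from 24.6% to 14.3% for H3K18La. The median H3K27Ac level fell alongside, from 1.92 to 0.660 RPKM, and its part in the calls was not tested.

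**Figure D2:**
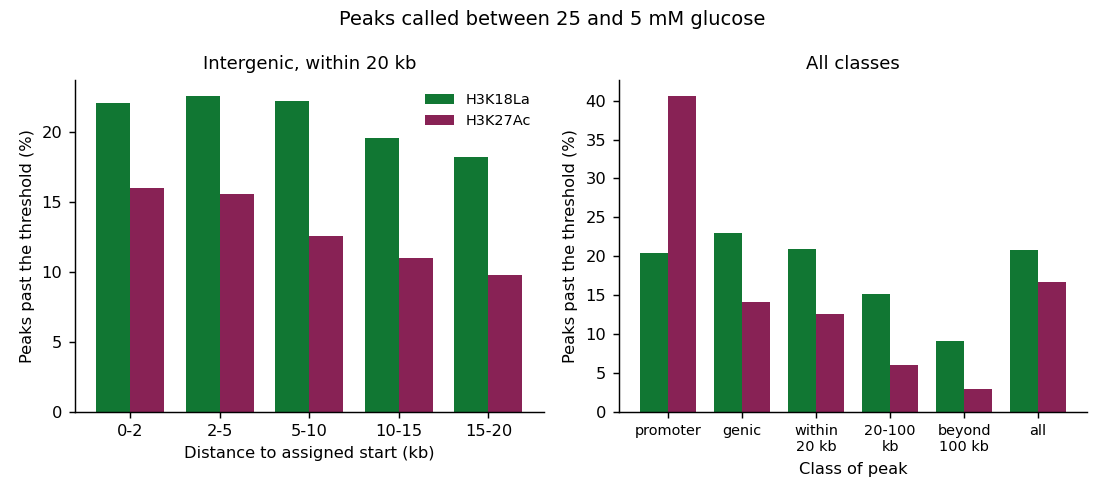
Percentage of peaks past the threshold between 25 and 5 mM glucose, for H3K18La (green) and H3K27Ac (purple), by distance of near intergenic peaks to the assigned start in kb (left) and by class of peak (right). H3K27Ac falls from 16.0% within 2 kb to 9.80% at 15 to 20 kb, and promoters stand out for H3K27Ac at 40.7% but not for H3K18La at 20.4%.

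Differences of mean log2(RPKM + 0.5) inside each library gave the same comparison over samples. Near intergenic peaks within 5 kb of a start exceeded those beyond 15 kb in H3K27Ac by 0.21 and 0.28 at 5 mM, and by 0.38 and 0.42 at 25 mM. For H3K18La the differences lay between -0.01 and 0.01 at 5 mM and between 0.04 and 0.13 at 25 mM. Neither mark's groups overlapped (exact permutation p = 0.333 for n = 2 each and 0.1 for n = 3 each). Near intergenic peaks exceeded the intergenic peaks at 20 to 100 kb by 0.12 ± 0.02 (SD, n = 3) at 5 mM and 0.27 ± 0.04 at 25 mM in H3K18La, and by 0.35 ± 0.08 (SD, n = 2) and 0.58 ± 0.02 in H3K27Ac, again without overlap. Minus promoters, the difference averaged -1.05 at 5 mM and -1.60 at 25 mM in H3K27Ac without overlap, while in H3K18La the groups overlapped.

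Calls of one mark were also counted by the level of the other. All peaks were split into deciles by mean H3K27Ac, and H3K18La was called at 0.970% of the 2164 near intergenic peaks in the lowest decile, at 12.2% in the fifth decile and at 89.3% of the 857 in the highest. At promoters in the same highest decile 44.04% were called, and at intergenic peaks 20 to 100 kb away 97.1% of 238. Split by mean H3K18La, H3K27Ac was called at 1.86% of near intergenic peaks in the lowest decile and at 49.4% of the 1766 in the highest, against 69.3% of promoters and 33.9% of the peaks at 20 to 100 kb. The deciles use means over both glucose levels, to which the higher 25 mM values contribute most, so they are no baseline level. Near intergenic peaks had a median of 1 to 8 reads per library, and the part of read depth in these shares was not tested.

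**Figure D3:**
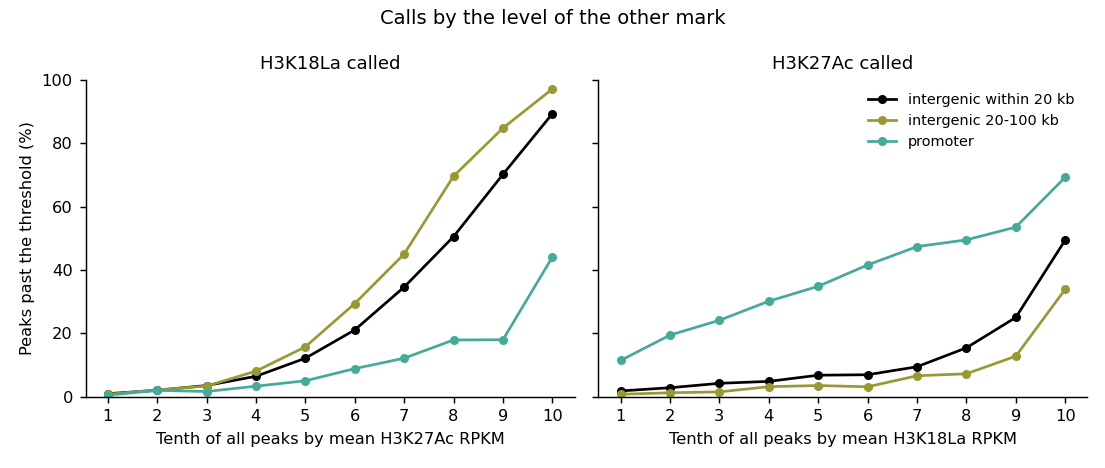
Percentage of peaks past the threshold in H3K18La (left) and H3K27Ac (right), by decile of all peaks ordered by the mean RPKM of the other mark. Lines join near intergenic peaks (black), intergenic peaks at 20 to 100 kb (olive) and promoters (teal), and the black line reaches 89.3% on the left and 49.4% on the right.

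Sequence motifs were searched on both strands of the central 300 bases of every peak. GGATTA was found in 12.5% of near intergenic peaks and in 11.5% of all peaks. The 2177 near intergenic peaks with it were called more often than the 15246 without, at 27.7% against 19.96% for H3K18La and 18.5% against 11.7% for H3K27Ac. The same split over all peaks gave 26.9% against 19.96% and 19.4% against 16.3%. They were also stronger, with median H3K18La of 1.37 against 1.17 RPKM and median H3K27Ac of 1.49 against 1.21 RPKM. In the highest decile of the other mark the shares were 91.2% against 88.8% for H3K18La and 57.7% against 47.9% for H3K27Ac. Inside each library, mean log2 signal with minus without GGATTA was 0.03 to 0.06 in the 5 mM and 0.22 to 0.24 in the 25 mM libraries of H3K18La, and 0.15 to 0.19 and 0.31 to 0.32 in those of H3K27Ac. These groups did not overlap (exact permutation p = 0.1 for n = 3 each and 0.333 for n = 2 each).

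GGGCGG, the GC box bound by SP and KLF factors, was found in 6.20% of near intergenic peaks, 44.8% of promoters and 11.8% of all peaks. With it, 23.8% of near intergenic peaks were called for H3K18La and 20.4% for H3K27Ac, against 20.7% and 12.02% without. Over all peaks the split was 19.6% against 20.9% for H3K18La, the opposite order, and 36.8% against 13.9% for H3K27Ac. In the highest decile of the other mark the order for H3K18La was the opposite, 77.0% with against 91.1% without, and for H3K27Ac it was 60.1% against 48.5%. Inside each library the mean log2 difference with minus without GGGCGG averaged 0.11 at 5 mM and 0.29 at 25 mM in H3K18La, and 0.37 and 0.58 in H3K27Ac, without overlap. TGCTGA was in 25.3% of them (24.8% of all peaks), AGGTCA in 22.1% (21.1%), CAGATG, an E-box read by NEUROD1 and other basic helix-loop-helix factors, in 26.6% (25.2%) and TGACTCA, the AP-1 site, in 6.32% (5.57%). Near intergenic peaks with TGCTGA were called at 20.3% for H3K18La and 12.6% for H3K27Ac, against 21.1% and 12.5% without it. Over all peaks these shares were 21.1% and 14.7% with it and 20.6% and 17.2% without. The mean log2 difference inside libraries also rose without overlap for AGGTCA, from 0.042 to 0.058 in H3K18La and 0.063 to 0.089 in H3K27Ac. For TGACTCA it did so from 0.062 to 0.121 and from 0.056 to 0.126. The CAGATG groups overlapped in both marks. Those of TGCTGA overlapped in H3K18La, and in H3K27Ac went from 0.013 to 0.009 without overlap.

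The gene lists used from here on were chosen with earlier results of these data known, so their counts are no independent test of an excess. Among genes of photoreceptor transcription factors, 11 of 20 had a near intergenic peak. H3K18La rose at 17 and H3K27Ac at 18 of their 26 peaks and neither fell, where 20.6% and 16.4% of all peaks rose, with median log2 fold changes of 1.70 and 1.44, against 0.76 and 0.58 over all peaks. These peaks were also stronger, with median values of 4.74 RPKM for H3K18La and 6.53 RPKM for H3K27Ac against 1.26 and 1.66 RPKM over all peaks, and the part of level in the counts was not tested. Casz1 encodes a zinc finger transcription factor of retinal progenitors and photoreceptors, and its 5 peaks, all upstream, rose in both marks with log2 fold changes of 1.72 to 3.85 in H3K18La and 1.24 to 2.25 in H3K27Ac. With libraries centred on the median of all peaks 8 of the 26 rose in H3K18La and 9 in H3K27Ac. At that setting 5.02% and 5.11% of all peaks were called in either direction. Scaled to reads in peaks none of the 26 rose, with medians of 0.43 and 0.28. With any 1 H3K27Ac library left out no H3K27Ac call was made in these small fits, and the median of the list was 1.21 to 1.65. The summed H3K18La over the listed peaks was 42.5 to 46.1 RPKM at 5 mM and 166 to 214 RPKM at 25 mM, and the summed H3K27Ac was 82.6 to 124 RPKM and 322 to 398 RPKM.

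The Casz1 peak nearest to the start, 4133 bp upstream, had H3K18La values of 0, 1.37 and 0 RPKM at 5 mM and of 14.5, 7.01 and 12.01 RPKM at 25 mM. The 5 mM libraries held 3 reads in all and the 25 mM libraries 39, a pooled ratio of 12.5 with a 95% exact counting interval of 3.97 to 63.2. The log2 fold change was 3.85 ± 0.53 (SE) with an adjusted p of 0.000359. This peak was named for a large H3K18La rise without overlap, so its separation in that mark was part of the choice. It passed the minimum of 30 reads through its 25 mM libraries. H3K27Ac there was 2.75 and 4.59 RPKM at 5 mM and 18.5 and 19.2 RPKM at 25 mM, which did not overlap (2.25 ± 0.44, adjusted p = 0.0115). Nrl encodes the leucine zipper factor that sets rod fate. Its peak 1294 bp upstream (chr14:55526275-55527194) had H3K18La of 1.03, 2.52 and 0.800 RPKM at 5 mM and 18.2, 9.09 and 8.06 RPKM at 25 mM. The lowest 25 mM library was above the highest 5 mM one, and the log2 fold change was 2.67 ± 0.41 (adjusted p = 0.000653). H3K27Ac at Nrl was 5.78 and 10.3 RPKM against 48.2 and 28.7 RPKM (2.19 ± 0.48, adjusted p = 0.0137). Mef2d, a MADS-box factor of photoreceptors, had a peak 2787 bp upstream that went from 8.58 and 12.6 to 50.7 and 33.2 RPKM in H3K27Ac and rose by 2.21 ± 0.42 on the log2 scale in H3K18La. At Thrb, the thyroid hormone receptor of cones, the peak 2333 bp upstream rose by 1.69 ± 0.28 in H3K18La and 1.83 ± 0.48 in H3K27Ac. The 2 peaks of Rxrg (0.12 and 0.26 in H3K18La, 0.041 and 0.34 in H3K27Ac) passed in neither mark. Nor did the 1 peak of Sall3 (0.70 and 0.82).

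Of 40 genes of phototransduction and the outer segment, also listed with earlier results of these data known, 13 had a near intergenic peak. H3K18La rose at 17 of these 21 peaks and H3K27Ac at 14, none fell, and the medians were 1.90 and 1.51 on the log2 scale. Over all peaks 20.6% and 16.4% rose, and these 21 were stronger, with median levels of 3.99 and 10.1 RPKM against 1.26 and 1.66 RPKM. The H3K18La count was 10 without replicate 1 at 25 mM and 13 to 17 without any 1 of the other libraries. Centred on the median of all peaks, 6 and 7 rose, at a setting that called 5.02% and 5.11% of all peaks. Scaled to reads in peaks none of the 21 rose. Prph2 encodes peripherin 2, which shapes the rims of outer segment discs. Its peak 5914 bp upstream (chr17:46903822-46904545) had H3K18La of 1.96, 1.33 and 4.07 RPKM at 5 mM and 15.5, 11.2 and 13.0 RPKM at 25 mM, and H3K27Ac of 7.03 and 15.1 against 52.2 and 41.1 RPKM. Both marks separated the glucose levels (2.31 ± 0.35, adjusted p = 0.000574, and 2.11 ± 0.49, adjusted p = 0.0152). Pde6b, a subunit of the rod phosphodiesterase, had a peak 1106 bp upstream with H3K27Ac of 11.7 and 17.4 RPKM against 42.8 and 37.5 RPKM, and its H3K18La rose by 1.84 ± 0.27. Sag encodes rod arrestin, and its peak 2221 bp upstream rose by 2.48 ± 0.39 in H3K18La and 1.51 ± 0.45 in H3K27Ac. The single peaks of Arr3, Cngb3 and Impg1 passed in neither mark, with log2 fold changes of 1.69, 0.77 and 0.40 in H3K18La. Their H3K27Ac changes were 0.57, -0.63 and 0.12. Rbp3 encodes a retinoid carrier of the space around the outer segments, and H3K27Ac at its peak 1030 bp upstream went from 4.56 and 10.3 RPKM to 61.3 and 34.3 RPKM (2.65 ± 0.50, adjusted p = 0.0115). Its H3K18La call (1.75 ± 0.47, adjusted p = 0.0168) was lost without replicate 2 at 5 mM and without replicate 1 or 2 at 25 mM, and over all alternatives its adjusted p ran from 0.00062 to 0.805.

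**Figure D4:**
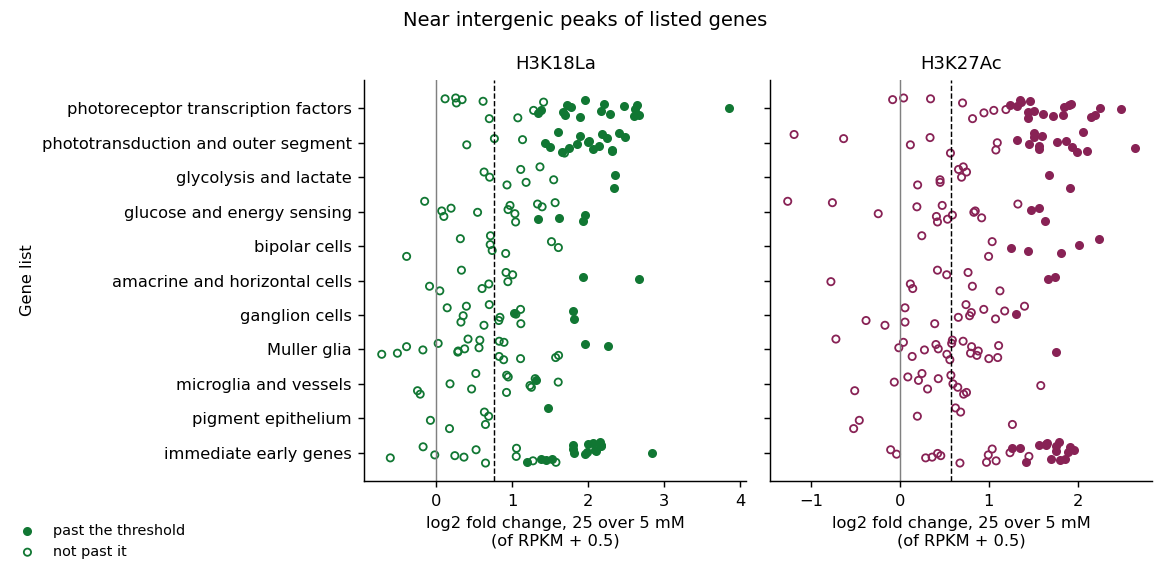
Log2 fold change of RPKM + 0.5, 25 over 5 mM, for each near intergenic peak of the listed genes in H3K18La (left) and H3K27Ac (right). Filled points passed the threshold, open points did not, the grey line is 0 and the dashed line is the median of all peaks (0.76 and 0.58), and no filled point lies left of 0.

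Genes of glycolysis and lactate had few near intergenic peaks, 9 at 5 of 32 genes, and 2 of the 9 rose in each mark (22.2%), near the 20.6% and 16.4% of all peaks that rose. Those 2 were the peak of Ldha, the lactate dehydrogenase subunit that favours lactate production, and the strongest of 3 peaks of Slc2a1, the glucose transporter GLUT1. The Ldha peak 1646 bp upstream (chr7:46838516-46839829) had H3K18La of 1.44, 1.91 and 0.560 RPKM at 5 mM and 13.6, 7.30 and 5.39 RPKM at 25 mM. The groups did not overlap (2.34 ± 0.43, adjusted p = 0.00185), nor did H3K27Ac at 6.51 and 11.2 against 43.9 and 25.8 RPKM (1.92 ± 0.48, adjusted p = 0.0178). The Slc2a1 peak 2388 bp upstream (chr4:119105084-119106323) had H3K18La of 0.765, 2.49 and 0.594 RPKM at 5 mM and 9.85, 8.13 and 5.71 RPKM at 25 mM (2.36 ± 0.43, adjusted p = 0.00184). Its H3K27Ac was 6.34 and 12.6 against 34.9 and 25.4 RPKM (1.68 ± 0.48, adjusted p = 0.0253). The peak of Hk2, a hexokinase, 5902 bp upstream did not pass in either mark (H3K18La 1.18 ± 0.62, H3K27Ac 0.45 ± 0.42), and neither did that of Eno1, an enolase (0.70 ± 0.50 and 0.69 ± 0.41). Of 16 peaks at 7 genes of glucose and energy sensing, 4 rose in H3K18La (2 without replicate 2 or 3 at 25 mM) and 3 in H3K27Ac. Epas1, a hypoxia-inducible factor, had a peak 7769 bp upstream that rose in both (1.93 ± 0.37 and 1.63 ± 0.44).

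The 5 bipolar cell genes with a near intergenic peak had 8 such peaks, 4 of them at Trpm1. None of the 8 rose in H3K18La by limma or by voom (2 had an unadjusted p below 0.05), while 5 rose in H3K27Ac, 3 of them at Trpm1, with medians of 0.72 and 1.35 on the log2 scale. Over all peaks 20.6% and 16.4% rose, and the median levels of these 8 were 1.01 RPKM in H3K18La and 3.46 RPKM in H3K27Ac, against 1.26 and 1.66 RPKM. Trpm1 encodes the cation channel of ON bipolar cells, and its peak 13297 bp upstream (chr7:64139752-64140538) had H3K27Ac of 1.47 and 0.818 RPKM at 5 mM and 10.4 and 4.79 RPKM at 25 mM (2.24 ± 0.44, adjusted p = 0.0115). H3K18La there was 1.81, 0.736 and 1.87 against 2.59, 1.88 and 1.29 RPKM, with overlapping groups (0.32 ± 0.48). The test of the difference between marks gave 1.92 on the log2 scale with an adjusted p of 0.971, so it did not pass. H3K18La there rested on 2 to 6 reads per library. This is the strongest of 4 Trpm1 peaks, and the H3K18La log2 fold changes of the others were 1.52, 0.71 and 1.61 with H3K27Ac changes of 1.04, 2.02 and 1.25, of which the first did not pass in H3K27Ac (adjusted p = 0.0944) and none in H3K18La. The peak of Grm6, the glutamate receptor of ON bipolar cells, went from 4.16 and 3.14 to 12.1 and 9.49 RPKM (1.45 ± 0.42).

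**Figure D5:**
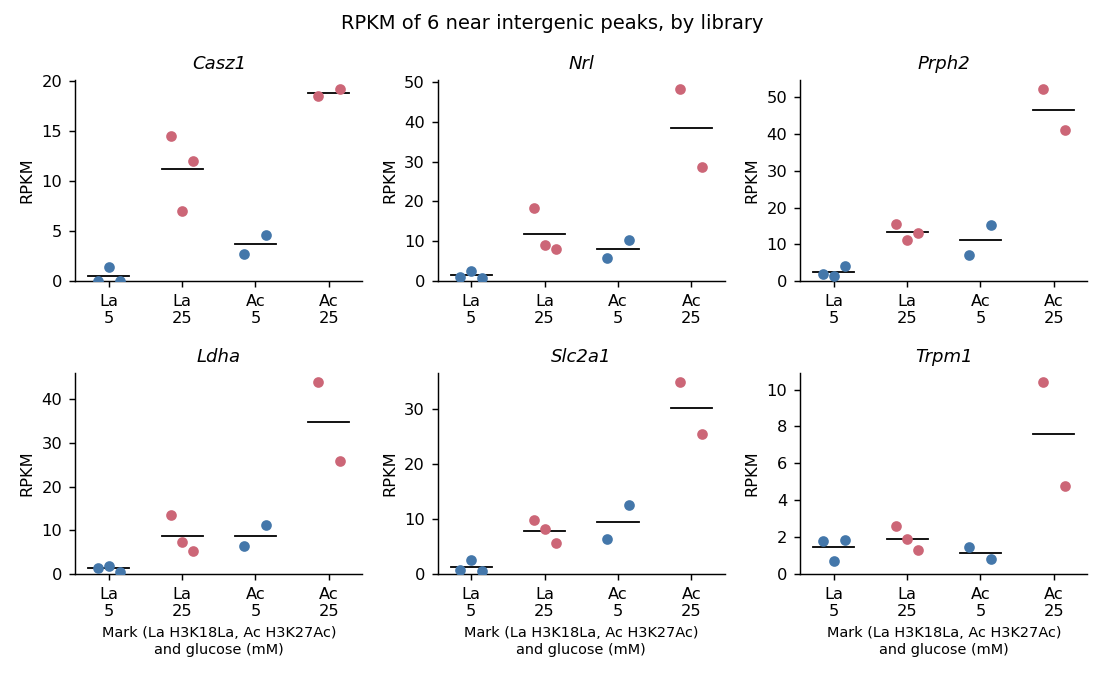
RPKM of 6 near intergenic peaks in each library, by mark (La, H3K18La; Ac, H3K27Ac) and glucose, with black bars at the group means. For Casz1, Nrl, Prph2, Ldha and Slc2a1 every 25 mM point lies above the 5 mM points of the same mark. For Trpm1 this holds in H3K27Ac alone. The Casz1 peak was named for its H3K18La rise without overlap.

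At genes of other retinal cells the counts are small, and 20.6% of all peaks rose in H3K18La and 16.4% in H3K27Ac. Of 10 peaks at amacrine and horizontal cell genes, 2 rose in each mark, all at Slc6a9, and none at Meis2, Calb2 or Onecut2. Of 14 at ganglion cell genes 3 rose in H3K18La and 1 in H3K27Ac, and of 20 at Müller glia genes 2 and 1 did. Both Müller glia rises in H3K18La were at Id1 and the 1 in H3K27Ac was at Dkk3. Glul, Lhx2, Nfib, Rlbp1, Slc1a3 and Hes1 had none. Slc6a9, the glycine transporter of amacrine cells, had a peak 2147 bp upstream with H3K18La of 1.83, 4.46 and 2.84 RPKM against 24.5, 20.9 and 18.2 RPKM (2.67 ± 0.30, adjusted p = 0.000182). Id1, an inhibitor of basic helix-loop-helix factors listed for Müller glia, rose by 2.26 ± 0.33 in H3K18La, with H3K27Ac at 1.11 ± 0.42. At genes of microglia and vessels 1 of 13 peaks rose in H3K18La and 0 in H3K27Ac by limma (by voom 1 and 1, with 1 at an unadjusted p below 0.05 in H3K27Ac). The 1 was a peak of C1qa, a complement gene of microglia, and its call was lost without replicate 2 or 3 of either glucose level. At the pigment epithelium gene Dct 1 of 6 peaks rose in H3K18La and 0 in H3K27Ac by limma (by voom 1 and 0, with 1 at an unadjusted p below 0.05), and the H3K18La call was lost without replicate 2 at 25 mM. Of the ganglion cell calls in H3K18La, none was left without replicate 2 at 25 mM, 1 without replicate 1 at 25 mM or replicate 2 at 5 mM. Of the 2 at Müller glia genes, 1 was left without replicate 2 or 3 at 25 mM or replicate 2 at 5 mM. Summed H3K18La over the pigment epithelium peaks was 9.43 to 9.80 RPKM at 5 mM and 13.3 to 19.6 RPKM at 25 mM. Summed H3K27Ac was 6.47 to 10.4 RPKM and 9.99 to 11.8 RPKM, so those groups overlapped. These cell types share the tissue, and which cells carried a signal was not tested.

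The list of immediate early genes was also chosen with earlier results of these data known. These genes, which neurons transcribe within minutes of a stimulus, had 29 near intergenic peaks at 10 of 17 genes. H3K18La rose at 17 and H3K27Ac at 16 of them, with medians of 1.57 and 1.41, where 20.6% and 16.4% of all peaks rose. These peaks were stronger too, with median levels of 3.55 and 10.8 RPKM against 1.26 and 1.66 RPKM over all peaks. The H3K18La count was 10 without replicate 1 at 25 mM and 12 to 15 without any 1 of the others. Centred on the median of all peaks, 6 and 8 rose, at a setting that called 5.02% and 5.11% of all peaks. Scaled to reads in peaks none of the 29 rose. All 6 peaks of Btg2, an antiproliferative gene, rose in both marks, by 1.80 to 2.17 in H3K18La and 1.56 to 1.79 in H3K27Ac. The strongest (chr1:134060547-134061771) had H3K27Ac of 21.3 and 27.5 RPKM at 5 mM and 109 and 66.6 RPKM at 25 mM, and H3K18La of 6.97, 5.198 and 4.21 against 39.0, 22.7 and 18.7 RPKM. It lies 17349 bp downstream of the assigned start and overlaps a RefSeq start. Fos encodes a subunit of AP-1, and its strongest peak, 17792 bp upstream, had H3K27Ac of 8.36 and 11.6 RPKM against 56.9 and 27.9 RPKM (1.96 ± 0.49, adjusted p = 0.0178). H3K18La rose at all 4 Fos peaks. The 6 peaks of Arc, a gene for a synaptic capsid-like protein, had H3K27Ac log2 fold changes of -0.04 to 1.45, and 1 of them rose in H3K18La.

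The largest H3K18La rises with at least 30 reads over the libraries and no overlap were at Gm37148, Lypd6b, Casz1, AC124742.1, Gm42569 and Gm47301, with log2 fold changes of 4.23 to 3.54. The reads were summed over both glucose levels, so a peak could reach 30 through its 25 mM libraries alone. Lypd6b encodes a Ly6-type membrane protein, and its peak 7819 bp upstream had H3K18La of 0, 1.54 and 0 RPKM at 5 mM and 9.50, 17.1 and 17.1 RPKM at 25 mM. The pooled ratio was 16.7 with a counting interval of 5.40 to 83.4, since the 5 mM libraries held 3 reads. H3K27Ac there was 1.23 and 3.01 against 2.60 and 3.95 RPKM and overlapped. The largest H3K27Ac rises were at Cblc, Gm6117, Edn2, Cln8, Gm49805 and Tnfsfm13, from 3.24 to 2.83. Edn2 encodes endothelin 2, a peptide that photoreceptors release under stress, and its peak 1853 bp upstream had H3K27Ac of 2.88 and 6.58 RPKM against 52.5 and 25.1 RPKM (2.91 ± 0.50, adjusted p = 0.00877). H3K18La there was 5.06, 2.92 and 2.62 against 26.2, 17.3 and 12.3 RPKM (2.23 ± 0.32, adjusted p = 0.000457). The Gm49805 peak, whose nearest protein-coding start is that of the vascular growth factor gene Vegfa at 54.2 kb, went from 2.68 and 6.01 to 49.6 and 22.01 RPKM in H3K27Ac.

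Peaks were also ranked by mean RPKM over both glucose levels. The higher 25 mM values contribute most to that mean, so the ranking favours peaks that rose. The strongest near intergenic peak of both marks was assigned to the snoRNA Gm24826 (chr1:39499129-39500332), 19201 bp from its start. H3K18La there was 41.7, 29.8 and 34.9 RPKM at 5 mM and 90.0008, 81.1 and 114 RPKM at 25 mM (1.41 ± 0.16, adjusted p = 0.000182). H3K27Ac was 42.4 and 68.5 against 98.7 and 90.6 RPKM, a difference that did not pass (0.80 ± 0.53, adjusted p = 0.310). Scaled to reads in peaks its H3K18La log2 fold change was -0.03. The next strongest in H3K18La were at Gm6117, A730013G03Rik, Gm9586, Gm45217 and Tax1bp1, at 26.5 to 22.5 RPKM on average, and all rose in both marks. In H3K27Ac they were at Btg2, Pwwp2b, Slc11a1, Gm13066 and Gm45217. Slc11a1, a metal transporter of phagocytes, had H3K27Ac of 25.5 and 32.9 against 76.5 and 64.0 RPKM without passing (1.26 ± 0.50, adjusted p = 0.0850).

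Some genes gathered many near intergenic peaks, and the genes with the most were noncoding. Gm33447 had 12, and Gm25872, Gm45024, Gm47202 and Gm49464 had 11 each. Over all peaks 20.6% rose in H3K18La and 16.4% in H3K27Ac. The peaks of these genes were stronger in H3K18La, with median levels from 2.63 RPKM at Gm25872 to 7.77 RPKM at Gm45024 and 7.66 RPKM at Gm49464, against 1.26 RPKM over all peaks. H3K18La rose at 11 of the 11 peaks of Gm49464, a lincRNA whose nearest protein-coding start, that of Tbc1d22a, was 450082 to 478512 bp away, and H3K27Ac at 1 of them. Its median log2 fold changes were 1.89 and 0.90. At the lincRNA Gm47202, 10 of 11 rose in H3K18La and 9 in H3K27Ac (medians 2.10 and 1.60), and at Gm45024, between 29072 and 68278 bp from the start of Lmo1, 10 and 4 did. Gm25872, a miRNA gene, had 3 and 1, and Gm33447 5 and 4. Peaks of one gene lie side by side in the same libraries and are not replicates of one another.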

How the data were processed

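CUT&Tag for H3K18La and H3K27Ac was compared between explants at 25 and 5 mM glucose. The authors aligned reads to GRCm38, called peaks with MACS, annotated them with ChIPseeker 1.34.1 and deposited RPKM values for 1 set of 108253 peaks. They also deposited their own H3K18La fold changes and p-values from edgeR 3.40.2, which were not used. No column of sample values was left out.

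In every library the deposited RPKM values stepped by single reads (100% of values whole within 0.01), which gave reads and denominators. Peaks were tested with limma 3.58.1 in R 4.3.3, with a trend and robust moderation, on log2(RPKM + 0.5) and Benjamini-Hochberg adjustment over all 108253 peaks. The study's count model was replaced because of the unit. Each mark was fitted alone, and the interaction over all 10 libraries. Shares were compared by exact permutation of libraries (scipy 1.17.1). On simulated data the fit recovered few changes where few peaks changed and many where many did. GC content, repeats and motifs came from the GRCm38 sequence of RefSeq, and of the annotated transcripts also found in GENCODE M21, 99.7% had identical coordinates.

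The members and the 11 gene lists were chosen with earlier results of these data known. Named peaks were, per mark, up to 6 rises and 6 falls of largest fold change (called, not overlapping, at least 30 reads, 1 per gene). By mean RPKM over both glucose levels, the 6 strongest peaks per mark and up to 4 genes per list were named. The 5 genes with most peaks were named too. Alternatives were other pseudocounts, filters, scalings, moderation, voom, thinning, a replicate block, a stricter threshold, averaged 5 mM replicates, other distance limits and leaving out each library. Same-numbered libraries correlated by 0.013 to 0.029 in their deviations, so the numbers were not taken as pairs. Some items are withheld and are not reported here.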

Additional observations from a re-analysis of the deposited data

How the results depend on the processing

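The called near intergenic peaks numbered 3646 in H3K18La and 2184 in H3K27Ac. At a threshold of 0.01 they were 1935 and 12 (11.1% and 0.0689%, against 10.9% and 0.0794% of all peaks). Centred on the median of all peaks they were 944 and 637 (5.42% and 3.66%, against 5.02% and 5.11%). Scaled to reads in peaks they were 0 and 0, as over all peaks. With reads thinned to equal depth they were 1752 and 0 (10.1% and 0%, against 9.78% and 0%). H3K27Ac also gave 0 calls at a pseudocount of 0.1 and under plain moderation. Leaving out 1 library gave 1975 to 3425 calls in H3K18La and 0 to 0 in H3K27Ac. With the replicate block there were 3031, 1261 and, for the interaction, 0 calls, but the numbers do not pair the samples. The median log2 fold change of 0.73 in H3K18La was 1.17 and 0.53 at pseudocounts of 0.1 and 1 and 1.10 for peaks of at least 1 RPKM, and 0.68 to 0.81 without 1 library. That of 0.47 in H3K27Ac was 0.70 at a pseudocount of 0.1 and 0.72 for peaks of at least 1 RPKM. Scaled to reads in peaks these medians turned to -0.067 and -0.34, and centred on the median of all peaks they were 0.10 and 0.035. The ratio of shares in H3K18La, 2.76, was 2.98 for peaks of at least 1 RPKM. Scaled to reads in peaks, the H3K18La log2 fold changes of peaks at Gm24826 (-0.031), Nefh (-0.31) and Egr1 (-0.16) turned negative. The cause of these changes was not tested, except that thinning and leaving out libraries leave fewer data. Over the alternatives, 943 of 1053 H3K18La and 524 of 867 H3K27Ac values of named peaks kept direction and side of the threshold. Leaving out peaks within 1 kb of a RefSeq start, and the scalings of the medians, were chosen after seeing the data. Depth limits weak peaks, with 10.997% to 42.6% of near intergenic peaks without a read in an H3K18La library.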

Other observations

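Calls were counted by the kind of transcript whose start was assigned to a near intergenic peak, where 20.8% of all peaks were called in H3K18La and 16.6% in H3K27Ac. Of the 4790 peaks near a protein-coding transcript, 22.9% were called in H3K18La and 17.0% in H3K27Ac. Near a lincRNA the shares were 22.3% and 10.2% of 3814 peaks, and near a processed pseudogene 17.5% and 9.34% of 3831. The 411 peaks near a snoRNA had the lowest shares of these 4 kinds, 10.2% and 6.81%, with median levels of 0.963 RPKM for H3K18La and 0.803 RPKM for H3K27Ac against 1.24 and 1.59 RPKM near protein-coding transcripts. The part of these levels in the shares was not tested.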
